A study of Mus musculus with 7 samples.

Results

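Coverage tracks of 3 H3K9me3 chromatin immunoprecipitation libraries from mouse hippocampus were used to describe where trimethylated lysine 9 of histone H3 lies along the autosomes. The 3 libraries are all the ChIP libraries among 7 samples; the other 4 are RNA libraries of cultured cortical neurons of another strain. All 3 came from wild-type C57BL/6 mice aged 3 months. Mice of the home cage library stayed in their home cage, and those of the 2 enriched libraries spent 24 hours in a larger cage with toys and a running wheel and then 1 week in a home cage. The libraries share the tissue, the strain and the antibody, and serve here as 3 measurements of one landscape; no contrast of housing was made. Whole hippocampus mixes neurons, glia and vessels, so a level is an average over cell types, and fewer cells with the mark cannot be told apart from less of the mark per cell. The labels do not say whether each library is 1 animal or a pool.

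H3K9me3 is laid down by SETDB1, SUV39H1 and SUV39H2 and is bound by HP1 proteins. It is known from pericentromeric satellite repeats, from retrotransposons silenced through KRAB zinc finger proteins and TRIM28, from zinc finger gene clusters and from the silent allele of imprinted control regions. In neurons it is also known from SETDB1-dependent silencing of the clustered protocadherin genes.

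Each track gave a mean coverage for every 10 kb window of chromosomes 1 to 19, which was divided by that library's own median over these windows. A relative level of 1 is therefore a typical window, and a window, gene body or gene start counted as called when it reached 2 in each of the 3 libraries. The libraries held 5982902 fragments on autosomes in the home cage, 12589445 in enriched replicate 1 and 7819038 in enriched replicate 2. This put a median of 23, 48 and 31 fragments in a 10 kb window, in that order. No input library was used, so copy number, mappability and fragment recovery of a region were not tested as parts of its level. Whether the antibody also binds other histone marks was not tested either.

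The promoters of 6 genes are printed first because the levels at gene starts turned on them: a pair of developmental genes and 3 imprinted genes that carried the mark in all 3 libraries, and 1 housekeeping gene that did not. Barhl2, Hoxd10 and the 3 imprinted starts were picked with their levels in view, and Ppia is the housekeeping start with the most CG. Each is the 250 bases before the start, 5′ to 3′, from RefSeq on GRCm38.p6, which is the build mm10, with every CG in capitals. Barhl2 (chr5:106458167-106458416, minus strand) encodes a homeodomain factor of the developing brain and Hoxd10 (chr2:74691641-74691890, plus strand) a limb and trunk patterning factor. Grb10 (chr11:12037421-12037670, minus strand), Mest (chr6:30737800-30738049, plus strand) and Peg3 (chr7:6730420-6730669, minus strand) are imprinted, and Ppia (chr11:6415617-6415866, plus strand) encodes the protein-folding enzyme cyclophilin A.
Barhl2: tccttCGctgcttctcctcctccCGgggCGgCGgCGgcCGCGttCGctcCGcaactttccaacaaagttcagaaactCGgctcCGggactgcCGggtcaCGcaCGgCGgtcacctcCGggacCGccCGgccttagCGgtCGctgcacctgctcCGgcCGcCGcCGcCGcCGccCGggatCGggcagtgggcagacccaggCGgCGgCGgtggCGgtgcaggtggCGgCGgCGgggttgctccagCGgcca
Hoxd10: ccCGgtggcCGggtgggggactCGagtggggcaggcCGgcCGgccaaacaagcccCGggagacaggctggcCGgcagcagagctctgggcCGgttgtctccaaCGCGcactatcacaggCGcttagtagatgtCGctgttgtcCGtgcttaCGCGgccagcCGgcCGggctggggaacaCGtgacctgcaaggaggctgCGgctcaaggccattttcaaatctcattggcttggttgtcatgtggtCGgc
Grb10: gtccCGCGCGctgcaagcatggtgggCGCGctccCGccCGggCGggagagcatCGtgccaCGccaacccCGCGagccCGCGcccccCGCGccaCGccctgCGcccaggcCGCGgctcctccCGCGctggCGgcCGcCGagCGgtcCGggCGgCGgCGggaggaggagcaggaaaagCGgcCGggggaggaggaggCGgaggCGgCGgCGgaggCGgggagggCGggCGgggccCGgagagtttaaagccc
Mest: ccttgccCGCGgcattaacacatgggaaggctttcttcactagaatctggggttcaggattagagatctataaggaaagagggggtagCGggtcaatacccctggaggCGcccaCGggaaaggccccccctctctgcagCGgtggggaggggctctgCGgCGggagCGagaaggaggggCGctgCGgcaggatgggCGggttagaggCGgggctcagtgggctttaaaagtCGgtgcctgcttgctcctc
Peg3: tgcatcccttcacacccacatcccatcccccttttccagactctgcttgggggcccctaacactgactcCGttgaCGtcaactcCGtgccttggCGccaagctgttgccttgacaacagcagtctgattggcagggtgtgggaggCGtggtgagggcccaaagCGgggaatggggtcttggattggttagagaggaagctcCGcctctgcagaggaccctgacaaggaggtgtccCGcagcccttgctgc
Ppia: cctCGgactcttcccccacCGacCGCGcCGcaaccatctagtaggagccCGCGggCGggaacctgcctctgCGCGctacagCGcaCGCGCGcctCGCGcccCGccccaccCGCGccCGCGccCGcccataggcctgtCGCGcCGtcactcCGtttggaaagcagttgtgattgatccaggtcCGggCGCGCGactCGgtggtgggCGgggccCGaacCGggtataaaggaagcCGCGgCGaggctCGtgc

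Over the 2 kb centred on these starts, Barhl2 had levels of 6.39 in the home cage, 7.03 in enriched replicate 1 and 7.70 in enriched replicate 2; Ppia had 0.217, 0.522 and 0.791. The printed stretch holds 36 CG in Barhl2 and 38 in Ppia. The Hoxd10 start stood at 5.62, 8.65 and 5.99 with 20 CG. Among the imprinted starts, Grb10 stood at 4.80, 4.00 and 4.00 with 40 CG, Mest at 3.82, 4.63 and 3.40 with 14, and Peg3 at 4.51, 3.51 and 4.29 with 8. The choice of starts fixes their order, so these values only show what a marked and an unmarked start look like. Ppia is close to Barhl2 and Grb10 in CG count and above the other three.

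The libraries were broadly alike in where they were high, and enriched replicate 2 stood apart in how high and partly in where. Over 238659 windows of 10 kb with coverage, Pearson's r of the log2 level was 0.830 between the home cage and enriched replicate 1, 0.759 between the home cage and enriched replicate 2 and 0.798 between the enriched libraries. Spearman's rho was 0.743, 0.637 and 0.677. In windows of 100 kb, where counting error is smaller, r was 0.967, 0.912 and 0.910 over 23993 windows. There rho was 0.918, 0.790 and 0.800. In the same order, the pairs shared 74.5%, 63.1% and 62.7% of their top 1% of windows at 10 kb. At 100 kb they shared 88.3%, 71.25% and 67.9%. These are descriptions across windows, which share the genome's copy number and mappability in all 3 libraries and are not independent.

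At 10 kb most of the disagreement was of the size that counting gives. The SD of the log2 fragment ratio between the home cage and enriched replicate 1 was 0.390, where counting alone gives 0.379. It was 0.455 against 0.412 for the home cage and enriched replicate 2, and 0.397 against 0.343 for the enriched libraries. At 100 kb the excess was plain for both pairs with enriched replicate 2: 0.207 against 0.131 and 0.206 against 0.110. The remaining pair had 0.130 against 0.120.

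Enriched replicate 2 had a narrower upper tail. The 99th percentile of its windows was 2.27, against 2.90 in the home cage and 3.08 in enriched replicate 1, while the 25th percentiles were 0.820, 0.782 and 0.809. Windows at 2 or more made up 1.94% of this library and 4.51% and 4.45% of the other two. Its strongest windows were nevertheless strong elsewhere: of its top 1% (2387 windows), 93.9% reached 2 in the home cage and 95.8% in enriched replicate 1. Of the top 1% of the home cage, 99.6% reached 2 in enriched replicate 1 and 80.2% in enriched replicate 2. No window in the top 1% of any library lay under 1 in another.

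Requiring 2 in all 3 libraries called 3547 windows, 1.49% of those covered; 4755 windows reached 2 in 2 libraries and 5869 in 1. Called windows held 4.64% of the summed level in the home cage, 4.82% in enriched replicate 1 and 3.96% in enriched replicate 2. Their median level was 2.97, 3.16 and 2.37. Just inside the threshold, 378 windows with a lowest library between 2 and 2.05 had a median of 2.35, and just outside, 466 windows between 1.95 and 2 had 2.27, so the call divides a continuous range. Without enriched replicate 2 the called share was 3.23%, so this library sets the size of the called set.

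Called windows were unevenly spread, and most of the summed level lay outside them. In bins of 1 Mb, 1457 of 2408 (60.5%) held no called window and 39 held 20% or more. The bin medians were close to 1: the 5th percentile was 0.844 and the 95th 1.32. The highest bin, with 51 of 100 windows called and a median of 2.60, was on chromosome 18, 34 Mb from its first covered window, and holds the clustered protocadherins. The map of called windows shows these bins as isolated dark marks, with a run of them near the start of chromosomes 7 and 17.

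**Figure D1:**
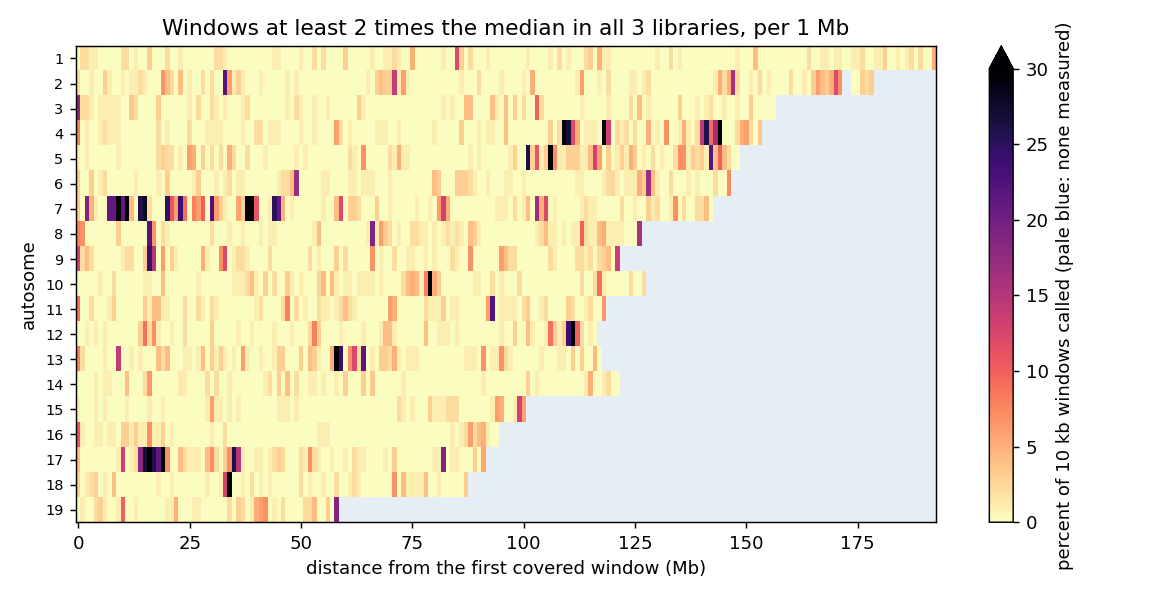
Percent of 10 kb windows called in each 1 Mb bin, by autosome (rows) and distance in Mb from the first covered window (x axis); darker is higher, the scale ends at 30%, and pale blue has no value. Dark bins gather in the first 50 Mb of chromosome 7 and between 10 and 20 Mb on chromosome 17.

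Chromosome 7 carried the largest share of called windows, 4.40% (613 of 13928). It holds 5.84% of covered windows and 17.3% of those called. Chromosome 17 followed with 3.65% (335 windows), then chromosome 4 with 2.16%, chromosome 13 with 2.05% and chromosome 5 with 1.92%. Chromosomes 14 and 1 were lowest, at 0.512% and 0.578%. Chromosome 7 ranked first and chromosome 17 second by windows at 2 or more in every library. Without enriched replicate 2 their called shares were 9.63% and 8.46%, and that of chromosome 14 was 1.38%. Chromosome medians differed little, from 0.972 on chromosome 16 to 1.08 on chromosome 17, so the chromosomes differed more in their tails than in their typical windows. Chromosomes 17 and 7 also had the highest medians in every library, 1.08 and 1.06 in the mean of the libraries.

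**Figure D2:**
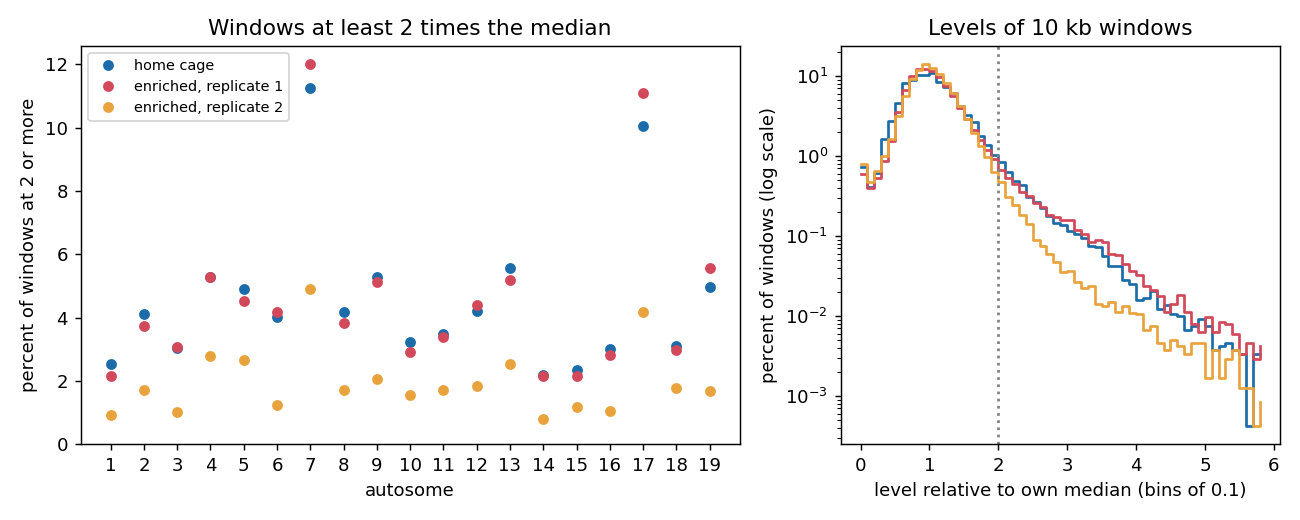
Left, percent of windows at 2 or more in each library, by autosome; right, percent of windows (log scale) at each level, with a dotted line at 2. Chromosomes 7 and 17 are highest in every library, and enriched replicate 2 (yellow) has the thinnest upper tail.

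Within chromosome 17, 185 of its 335 called windows lay between 10 and 20 Mb from its first covered window, where 18.7% of windows were called. On chromosome 7, called windows numbered 99, 117, 95, 107 and 64 in the first 5 stretches of 10 Mb. Over the whole of each chromosome, not only these stretches, the content of called windows was mixed. Of the 613 called windows of chromosome 7, 252 overlapped a protein-coding gene, 90 a pseudogene only, and 249 no gene model; 44 overlapped a zinc finger gene, 29 a vomeronasal receptor gene and 11 an olfactory receptor gene. On chromosome 17 the same counts were 41, 17 and 5 of 335. Over all autosomes, 46.7% of covered windows overlap a protein-coding gene, 3.35% a pseudogene only and 40.6% no gene model. For zinc finger, vomeronasal and olfactory receptor genes the shares are 0.712%, 0.278% and 0.526%. Chromosome 7 alone holds 108 of 425 zinc finger genes and 238 of 1111 olfactory receptor genes. Shares over all windows of each chromosome were not computed, so these counts do not show which content is over-represented.

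The outermost Mb at either chromosome end held more called windows than its neighbour. Mouse chromosomes have their centromere at one end, and the first covered windows lie about 3 Mb in, after the unassembled satellite. In the first Mb from there 4.94% of windows were called (91 of 1841), and in the next Mb 0.898%. In the last Mb of the distal end 3.64% were called, then 0.684% in the Mb before it, against 1.39% in the middle of the chromosomes. The medians of these end bins were 0.999 and 0.989, so most windows there were typical. Chromosomes varied: 18 windows were called in the first Mb of chromosome 3 (median 1.696) and 13 on chromosome 9 (1.402), but 0 on chromosomes 1, 10, 12, 14 and 19. On chromosome 14 this Mb had a median of 0.027. The centromere end was above the chromosome's middle in all 3 libraries on 5 of 19 autosomes and below it on 8, and the distal end above on 7 and below on 9, so neither end was raised as a rule. Further in, between 5 and 10 Mb from the distal end, the called share was between 1.27% and 3.98% per Mb, so the last Mb was not the highest stretch there.

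The highest windows of the autosomes lay at few places, some of them in adjacent windows. The window chr17:39840001-39850000, which holds the 18S ribosomal RNA copy Rn18s-rs5 and the long noncoding RNA AY036118, stood at 194 in the home cage, 159 in enriched replicate 1 and 183 in enriched replicate 2. The window chr11:3190001-3200000 inside Sfi1, a centrin-binding spindle gene, stood at 137, 139 and 106, and its neighbour at 74.7, 72.9 and 54.5. Windows without a gene model followed at chr14:19410001-19420000 (56.1, 28.2 and 39.6), chr2:98660001-98670000 (40.3, 19.9 and 27.2) and chr15:75080001-75090000 (28.2, 19.5 and 23.2). Then came 4 neighbouring windows of the Ugt1a locus on chromosome 1, from 20.3 down to 17.98 in the mean of the libraries. Whether the assembly holds fewer copies of these sequences than the mice was not tested. The 30 windows at 10 or more held 0.349%, 0.309% and 0.285% of the summed level, and leaving them out gave a called share of 1.16% in place of 1.20% on chromosome 11.

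Runs of at least 5 adjacent called windows, called domains here, numbered 58 on 16 autosomes and covered 4260 kb in all. They had a median of 60 kb and held 12.0% of the called windows, so most called windows stood alone or in shorter runs. Chromosome 7 had 12 domains, and chromosomes 4 and 17 had 7 each. Zinc finger genes lay in 10 domains, Hox genes in 5, protocadherins in 4, vomeronasal receptor genes in 3 and olfactory receptor genes in 0, and 16 held no protein-coding gene. Of the 58 domains, 36 held no gene of these lists. Of covered windows, 0.712% overlap a zinc finger gene, 0.0184% a Hox gene, 0.0272% a protocadherin, 0.278% a vomeronasal and 0.526% an olfactory receptor gene. A domain spans at least 5 windows and meets a listed gene more easily than a single window does. The share for stretches of that length was not computed, so the excess over these shares cannot be read from the counts. The number of domains is sensitive to the definition. Without enriched replicate 2 it was 259, and with 1 window under the threshold allowed inside a run it was 136.

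The genes in the longest domains are described here and do not stand for all domains. The longest, 160 kb on chromosome 18, holds Pcdhb9 to Pcdhb22 and stood at 4.48, 5.09 and 3.51; a 140 kb domain over the Pcdhg genes stood at 5.69, 6.19 and 4.79, and a 110 kb domain over Pcdha1 to Pcdha7 at 4.16, 4.55 and 2.96. Clustered protocadherins are adhesion proteins of which each neuron uses a few. The second, chr4:147390001-147540000 with Zfp978 and Zfp982, stood at 7.59, 8.06 and 5.47. The third, chr13:12800001-12940000, holds the placental prolactin-family gene Prl2c3 and stood at 5.19, 5.91 and 3.82. A 100 kb domain at chr1:88210001-88310000 stood at 15.2, 17.6 and 11.3. It spans the last exons shared by the Ugt1a genes, which glucuronidate bilirubin and drugs, and goes on over Mroh2a, Hjurp, a loader of centromeric histone CENP-A, and Trpm8, the cold-sensing channel.

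All 4 Hox clusters lay in domains of 130 kb each. HoxD (chr2:74640001-74770000) stood at 3.37, 4.06 and 3.24, HoxA (chr6:52150001-52280000) at 3.94, 4.28 and 3.69, HoxB (chr11:96250001-96380000) at 3.48, 3.85 and 3.05, and HoxC (chr15:102910001-103040000) at 3.44, 3.84 and 3.17. Hoxb13, which lies apart from its cluster, had a domain of its own. Hox genes specify position along the body axis, are silent in the forebrain, and are a textbook target of Polycomb repression. Whether marks other than H3K9me3 add to these levels was not tested. Between 150 and 300 kb from the cluster centres the window medians were 1.43, 1.41 and 1.38 at HoxA, 1.48, 1.34 and 1.499 at HoxB, 0.921, 1.01 and 1.10 at HoxC and 1.16, 1.11 and 1.11 at HoxD. Of 32 such flanking windows at each cluster, 0 were called at HoxA, HoxC and HoxD and 1 at HoxB. Each profile is a block over the genes with lower windows around it, and the HoxA and HoxB flanks stood above the 75th percentile of all windows (1.301, 1.27 and 1.24). The narrower peak beside HoxA lies at Evx1 (gene body 3.83, 4.90 and 3.70), a homeobox gene that neighbours the cluster.

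**Figure D3:**
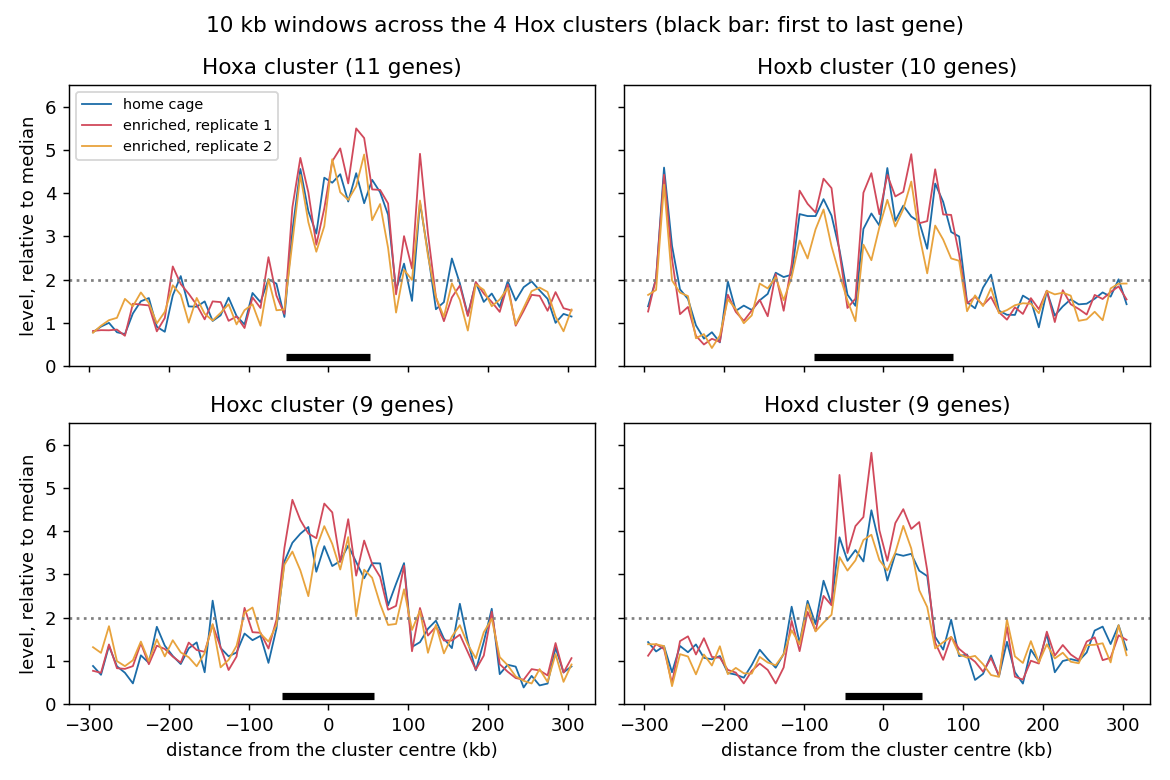
Level of 10 kb windows up to 300 kb from the centre of each Hox cluster, by library, with a dotted line at 2 and a black bar from the first to the last Hox gene. Each cluster stands above its flanks in all 3 libraries, and the HoxB bar includes the separate Hoxb13 block on the left.

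Gene by gene, over 40905 gene bodies of at least 500 bases, 1443 were called, 3.53% of them, and the median levels were 0.931, 0.957 and 0.998. All 39 Hox genes were called. Their median was 3.68 in the home cage, 4.57 in enriched replicate 1 and 3.74 in enriched replicate 2. Single genes ran from 3.00 (Hoxc4) to 5.73 (Hoxa2). Hoxa2 stood at 6.35, 5.89 and 4.94, Hoxa5 at 5.76, 5.55 and 5.04, and Hoxa7 at 4.66, 5.75 and 5.14. The lowest in the mean of the libraries, Hoxc4, stood at 3.20, 3.16 and 2.66. The lowest value of any Hox gene in any library was 2.13, above the median of all genes, so the class did not overlap that median.

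Other patterning genes were high in the same way. In a list of 106 homeobox and T-box genes, drawn up after the Hox values were seen, 68 were called and 1 lay under 1 in the mean of the libraries. The medians were 3.10, 3.35 and 2.77. Dlx2, a driver of interneuron fate, stood at 6.51, 6.18 and 6.94, Nkx2-4 at 5.79, 7.20 and 5.43, and Tlx3, a selector of spinal cord neurons, at 6.13, 6.48 and 5.72. Barx1, a factor of stomach and jaw, stood at 6.01, 7.07 and 4.83. By family, 6 of 6 Dlx, 5 of 6 Irx, 11 of 14 Nkx, 5 of 8 Lhx, 5 of 12 Tbx and 3 of 9 Pax genes were called. The lowest were Tbx6 (0.997, 1.04 and 0.913) and Prrx2 (1.02, 1.08 and 1.07). Over the members of at least 5 kb the class median was 2.51 in place of 3.07.

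A list of transcription factors that the forebrain itself uses had lower medians than the patterning list. In a list of 21, also drawn up after values were seen, 4 were called and the medians were 1.44, 1.40 and 1.47. The called members were Sox2 (3.28, 3.45 and 2.503), Neurod2 (2.44, 3.50 and 2.69), Tbr1 (2.25, 2.22 and 2.96) and Fezf2 (2.45, 2.24 and 2.42). Zbtb20, a factor of hippocampal pyramidal cells, stood at 0.808, 0.893 and 0.930. The 2 lists share Emx1, Emx2 and Lhx2, and the patterning list also holds called interneuron genes such as Dlx2 and Lhx6. The ranges of the 2 lists overlapped, and their difference was not tested.

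Medians of synaptic and housekeeping genes were under that of all genes in each library. All genes include noncoding genes and pseudogenes, and protein-coding genes alone had medians of 0.871, 0.892 and 0.960. Synaptic genes were close to these, and above them in enriched replicate 1, while housekeeping genes were lower in each library. At the share of 3.53% over all gene bodies a list of this size with 0 called is near the background, so the counts of 0 say little. Of 39 synaptic and activity genes 0 were called, with medians of 0.865, 0.898 and 0.954; Gria2, an AMPA receptor subunit, stood at 0.570, 0.652 and 0.708 and Egr1, an immediate early gene, at 1.51, 1.504 and 1.63. Of 24 housekeeping genes 0 were called and all lay under 1, with medians of 0.578, 0.680 and 0.671. Of 80 ribosomal protein genes 0 were called, with 0.489, 0.670 and 0.686, although a median of 3 to 10.5 fragments a gene makes single genes imprecise. The 26 genes that write, read or erase H3K9 methylation also had 0 called, with 0.713, 0.778 and 0.834. As an exact sign-flip permutation test over 3 libraries cannot go below a p of 0.25, none of these orders between classes can pass a test over libraries. Hox genes had the highest class median in each library, and housekeeping and ribosomal protein genes lay under all genes in each.

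The defining markers of the cell types of the tissue were few, and beside a share of 3.53% over all gene bodies 0 called in lists this small says little. Of the excitatory neuron markers 2 of 9 were called (the factors Neurod2 and Tbr1), of the inhibitory neuron markers 2 of 7, of the oligodendrocyte markers 1 of 7, and of the astrocyte, microglia and vascular markers 0 of 6, 0 of 6 and 0 of 4. Class medians were between 0.937 for astrocyte and 1.52 for inhibitory neuron markers. A level over a gene does not give the share of cells that express it.

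**Figure D4:**
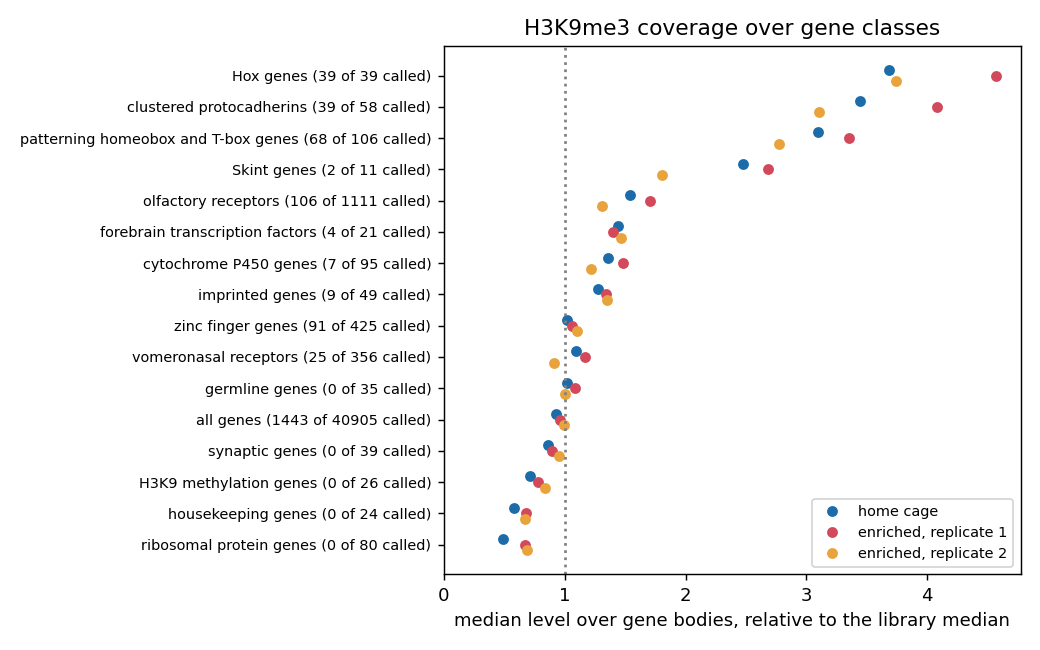
Median relative level over gene bodies of each class (x axis), by library, with the number of called members; the dotted line marks a level of 1. Hox genes, protocadherins and patterning genes lie above 2.5 in all 3 libraries, and housekeeping and ribosomal protein genes under 0.7.

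Zinc finger genes were split between marked and unmarked members. Of 425 genes 91 were called (21.4%), although their medians of 1.02, 1.06 and 1.10 were close to those of all genes. Zfp110 stood at 6.85, 8.25 and 6.24, Zfp981 at 6.52, 7.61 and 4.67, Zfp992 at 6.78, 6.66 and 5.36 and Zfp606 at 5.41, 5.87 and 4.63. In 20 clusters of at least 5 neighbours, 52 of 191 were called (27.2%), and elsewhere 39 of 234 (16.7%). The cluster with most members, 25 on chromosome 13 between 67038594 and 67827000, had 11 called, and a cluster of 10 on chromosome 7 from 127233061 had 0. By chromosome, 9 of 21 were called on chromosome 9, 19 of 108 on chromosome 7 and 0 of 18 on chromosome 6. At the other end, Zfp968 and Zfp965 on chromosome 2 were listed at 0 in all 3 libraries, as were 5 zinc finger genes in all. Near-identical copies share reads, so values of such genes are uncertain.

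In zinc finger genes the mark was higher at the 3′ end than before the start. These genes carry the repeats that encode their fingers in the last exon. Over 333 zinc finger genes of at least 5 kb, the last 2 kb had medians of 1.10, 1.25 and 1.25, and the 2 kb before the start 0.703, 0.836 and 0.922. The end was the higher in all 3 libraries in 157 (47.1%), against 18.6% of 19056 genes of that length. Among the 77 called genes the medians were 5.09, 5.32 and 3.83 at the end and 0.991, 1.04 and 1.11 before the start, with the end higher in 67; the call used the gene body, so this is a description. The median end exceeded the median start in 3 of 3 libraries (exact sign-flip permutation test, 2-sided p = 0.25, the smallest 3 libraries can give).

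Olfactory receptor genes were above the median of all genes in each library, and vomeronasal receptor genes in 2 of 3. Olfactory receptor genes, of which a sensory neuron expresses 1 and the hippocampus few, had medians of 1.54, 1.702 and 1.31 over 1111 genes, and 106 were called (9.54%). They are short, with a median of 4, 9 and 5 fragments, and with 5 kb added on either side 2.70% were called, against 2.46% of all genes under that setting, so the share of calls was then near the background. Olfr398 on chromosome 11 stood at 4.87, 5.30 and 4.77. Receptors on chromosome 17 were highest (median 2.26, 2.45 and 1.51 over 51) and those on chromosome 7 next (1.81, 2.01 and 1.40 over 238). Vomeronasal receptor genes had medians of 1.10, 1.16 and 0.911, with 25 of 356 called (7.02%, against 3.53% of all gene bodies). Of the 356, 62 were without any coverage. A median of 4, 10 and 4 fragments makes their calls imprecise, and calls with 5 kb added were not made for this class. Skint genes, a skin T cell receptor-selecting family, had 2.48, 2.68 and 1.80 with 2 of 11 called (18.2%). Cytochrome P450 genes, which oxidize drugs and steroids, had 1.36, 1.48 and 1.22 with 7 of 95 called (7.37%).

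Among genes of at least 5 kb with a name, the highest after Sfi1 (32.8, 32.6 and 24.7) were Ugt1a1 (23.6, 28.2 and 16.05), Mroh2a (16.7, 19.6 and 12.4), Ugt1a2 (11.2, 13.5 and 7.999) and the sperm motility kinases Smok2b (10.1, 10.98 and 6.92) and Smok2a (8.49, 10.7 and 5.70). A pair of patterning factors came among the first 15: Isl2, of motor neurons (5.53, 6.25 and 5.65), and Dbx1, of spinal interneurons (6.27, 6.19 and 4.53). The 10 lowest were all listed at 0, among them Zfp966, Zfp967, Olfr1506 and Hsd3b4. Over all gene bodies 920 had no coverage in any library.

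By content, windows with a pseudogene and no protein-coding gene were called more often (3.97% of 7986) than windows with a protein-coding gene (1.35% of 111566) or with no gene model (1.41% of 96792). Windows over zinc finger genes were called in 12.8%, over patterning genes in 39.3%, and over Hox genes in 44 of 44. Windows without a gene model still made up 38.4% of all called windows.

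At gene starts some lists rose over a narrow stretch. Of 31396 starts, 1306 (4.16%) reached 2 over the surrounding 2 kb in all 3 libraries. Hox starts did so in 24 of 24, patterning genes in 73 of 89, forebrain transcription factors in 8 of 22, imprinted genes in 16 of 58, germline genes in 4 of 37, and housekeeping genes in 0 of 21. Starts of 1 gene, and of neighbours such as Peg3 and Usp29, can share these bases. Emx1, Emx2 and Lhx2 count in both the patterning and the forebrain list.

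As a ratio of the start to its surroundings, the rise was largest at germline genes among the lists profiled, in each library. Within 250 bases of the start, the mean level of germline starts was 2.02, 2.72 and 2.40, and between 4 and 5 kb away it was 0.818, 0.940 and 0.967. Imprinted starts had 2.16, 2.84 and 2.25 against 1.31, 1.43 and 1.26. Patterning genes had 4.02, 4.94 and 3.96 against 2.75, 2.94 and 2.63, so their rise stood on a broad block. Zinc finger genes ran the other way, with 0.824, 1.03 and 0.982 at the start and 1.33, 1.304 and 1.24 away from it, and housekeeping genes had 0.629, 0.574 and 0.531 against 0.722, 0.742 and 0.884. Over all starts the values were 1.04, 1.15 and 1.14 against 1.06, 1.08 and 1.07. At germline and imprinted starts each library was higher at the start than away from it.

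**Figure D5:**
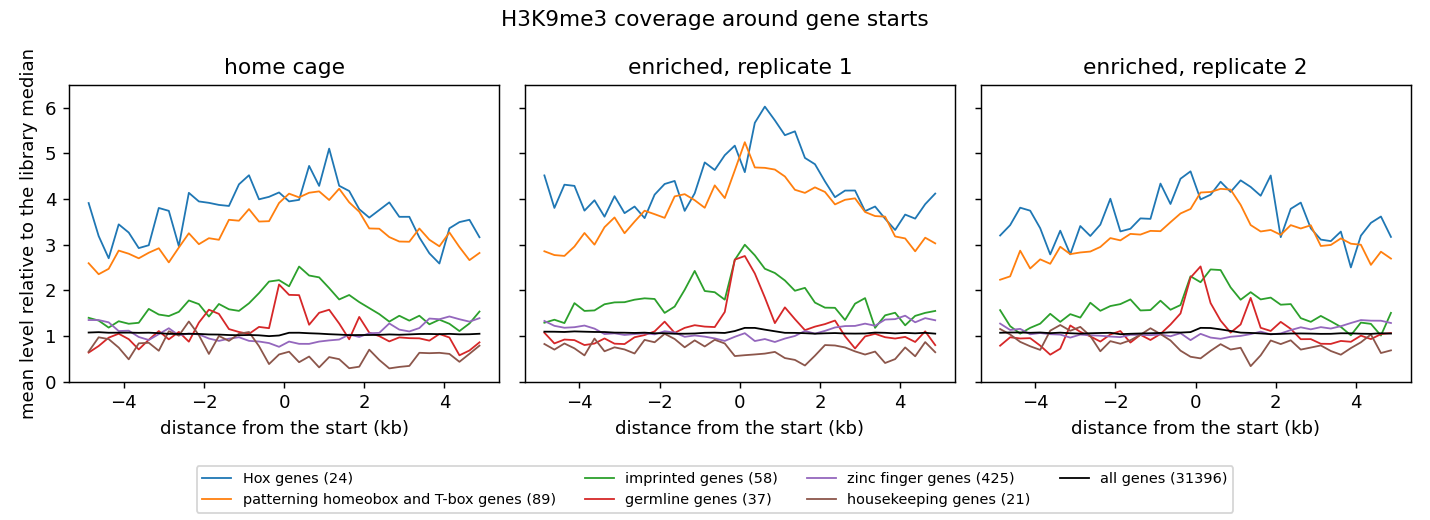
Mean relative level in 250 base bins from 5 kb before to 5 kb after gene starts, 1 panel per library, with the number of starts of each class. Germline and imprinted starts (red, green) peak near 0, Hox and patterning genes (blue, orange) are high throughout, and housekeeping genes (brown) dip.

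The imprinted starts with the highest levels were Mkrn3 (7.22, 9.91 and 5.60), Igf2 (4.68, 4.58 and 6.203), Meg3 (5.52, 5.30 and 4.11) and Zdbf2 (4.35, 5.00 and 3.62), followed by Grb10, Peg3, Usp29 (4.43, 3.52 and 4.11) and Mest as given above. Each of Igf2, Meg3, Zdbf2, Grb10 and Mest also had a lower start that was not called. Such starts stood at 0.557, 0.965 and 1.01 for Igf2 and 2.62, 2.70 and 1.60 for Meg3. They stood at 1.16, 1.91 and 2.09 for Zdbf2, 1.83, 1.82 and 2.25 for Grb10 and 1.30, 1.09 and 0.804 for Mest. Imprinted genes are expressed from the allele of 1 parent, and the tracks do not separate alleles. Gene bodies of the class were lower, with medians of 1.28, 1.34 and 1.35 and 9 of 49 called (18.4%, against 3.53% of all gene bodies), led by Mkrn3 (5.36, 8.50 and 4.66), Dlx5, which is also a patterning gene (4.32, 4.53 and 3.88), and Cdkn1c, a cell cycle inhibitor (4.83, 3.82 and 3.34). With 5 kb added on either side 4.08% of the class were called, and among members of at least 5 kb 5.56%, against 2.46% and 2.16% of all genes. Several called members are neighbours: Mkrn3, Ndn, Magel2 and Peg12 lie within chr7:62348277-62464510, and Cdkn1c and Phlda2 are near each other on chromosome 7. The 9 called members are therefore not 9 separate loci. Copg2, the neighbour of Mest, was low at 0.527, 0.588 and 0.644. Not every known imprinted start was marked: Igf2r stood at 1.47, 0.796 and 1.37 and Zim1 at 0.472, 0.478 and 0.643, both singled out after their values were seen.

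The 4 called germline starts, named after their values were seen, were Dazl (4.71, 6.54 and 2.67), Ddx4 (2.61, 4.81 and 3.69), Sycp1 (3.14, 3.10 and 2.67) and Mael (2.78, 2.27 and 3.06). Dazl and Ddx4 encode germ cell RNA-binding proteins, Sycp1 a synaptonemal complex protein and Mael a factor of transposon silencing. Their gene bodies were not called, as none of the 35 germline gene bodies was, and the class median over bodies was 1.02, 1.08 and 1.00. Other germline starts stayed low, such as Stra8, the meiotic entry gene, at 0.683, 1.15 and 0.322.

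Median levels were lower at starts with the most CG than at those with the fewest, while called shares did not follow the medians. Starts with 26 or more CG in their 300 bases (250 before and 50 after the start) had medians of 0.616, 0.731 and 0.828 over 5450, and those with 0 to 3 had 1.05, 1.04 and 1.03 over 9701. The called share was 4.09% of the first and 3.19% of the second, and highest, 6.60%, at 8 to 15 CG. Among the CG-rich starts, 223 were called in all, with 21 of 26 for patterning genes, 5 of 5 for Hox genes, 3 of 11 for imprinted genes and 0 of 8 for housekeeping genes. The motif TGCCGC, or GCGGCA on the opposite strand, is the core bound by the imprinting factor ZFP57 when methylated. It occurred in 5 of 16 called imprinted starts and 11 of 42 others, in 11.6% of all starts and in 28.6% of housekeeping starts. The 2 spellings are one motif on either strand and cannot be told apart here.

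Genes for which spliced reads were recorded in cultured cortical neurons had less of the mark. The RNA tables list genes with splicing events, and 5518 protein-coding genes measured here had an event with at least 10 reads in both control libraries. Of these 31 were called (0.562%), with medians of 0.759, 0.781 and 0.885. Of 15038 protein-coding genes not so listed 693 were called (4.61%), with medians of 0.945, 0.969 and 1.01. The difference had the same direction in 3 of 3 libraries (exact sign-flip permutation test, 2-sided p = 0.25, the smallest possible). The lists come from other cells of another strain, and a gene without several exons cannot be listed. Among the called genes with reads were Sfi1, Zfp110, Hjurp, Zfp180 (4.82, 5.49 and 4.80), Zfp2 (5.13, 5.21 and 4.58), Zfp68 (5.43, 5.06 and 4.39) and Aida, an axin-interacting protein (4.90, 4.66 and 4.36).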

How the data were processed

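For each ChIP library the authors deposited a coverage signal per base, in whole multiples of 1 step (tolerance 0.01) that is the same throughout a library and smaller in deeper ones. Per the submitters' processing notes the build was mm10, and the tools listed, without roles, include BWA 0.7.12 and MACS2 besides TopHat2 and CASAVA 1.7; duplicate handling is not given in the sources used here. The RNA tables hold event read counts that the authors deposited, used only to list genes with reads.

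Mean coverage was taken over 10 kb windows (246085; 7426 without coverage in any library were left out of shares), gene bodies of RefSeq GRCm38.p6 and 2 kb at gene starts, and divided by the library median. Fragments were recovered from the steps at lengths of 285, 207 and 238 bases; counting error sets the precision. Correlations used log2 of the level plus 0.1. The design foresaw base composition, repeats and assembly gaps from a genome; CG counts at promoters and windows without coverage were used in their place. Gene starts of chromosome 18 were not used here. Apart from Ppia, genes whose levels are given outside the following rule, such as Evx1, Zfp180, Zfp2, Zfp68 and Aida, were chosen after their values were seen. Genes were named by rule: the 5 highest and 2 lowest of each list, and the 15 highest and 10 lowest of at least 5 kb. The rule also took the 12 longest domains, the 10 strongest windows and the 8 highest imprinted starts. A few named by this rule are not reported here. The members and lists were chosen with earlier results of these data known. Scripts were tested on simulated data. Alternatives were other scalings, thresholds, window sizes, fragments, gene spans, and each library left out; the added gene lists and members without coverage left out were added after the data were seen. Versions were matplotlib 3.10.9, scipy 1.17.1, pandas 2.3.3 and numpy 2.4.6 under Python 3.11.15.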

Additional observations from a re-analysis of the deposited data

Results flagged for a closer look

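Signal outside the autosomes, which the comparisons did not use, was above the limit that a count of 0 allows. The mitochondrial genome had a mean level of 41.0 in the home cage, 114 in enriched replicate 1 and 39.6 in enriched replicate 2, relative to the autosomal median. The X chromosome had a median window level of 0.519, 0.496 and 0.482 in the same order. Mitochondrial DNA carries no histones; what gives these levels was not tested.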

How the results depend on the processing

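No paired analysis was possible because the home cage has 1 library and the groups were not compared. Of 169 alternatives to 23 results, 137 left a count within 1.5 times or a level within 1 SD of the libraries. The called share of windows was 5.78% at a threshold of 1.5, 0.260% at 3, 3.24% with the threshold on the mean of the libraries, 2.27% in windows of 5 kb, 0.758% of 50 kb and 0.563% of 100 kb. Domains numbered 286 at 1.5, 13 at 3 and 136 with 1 window allowed under the threshold. With each library left out in turn, the called share ran from 1.58 to 3.23%, domains from 58 to 259, chromosome 7 from 4.54 to 9.63%, chromosome 17 from 3.72 to 8.46%, chromosome 14 from 0.579 to 1.38%, all gene bodies from 4.02 to 5.80% and olfactory receptors from 11.8 to 22.1%; the highest value in each was without enriched replicate 2. Scaling by the mean gave class medians of 0.918 for all genes, 1.01 for zinc finger genes and 1.26 for imprinted genes. With 5 kb on either side, medians were 2.72 for patterning genes, 1.26 for imprinted genes and 0.714 for housekeeping genes, and 2.70% of olfactory receptors and 4.08% of imprinted genes were called. Over genes of at least 5 kb, medians were 2.51 for patterning genes, 2.03 for protocadherins and 1.19 for imprinted genes, and 2.16% of all genes, 4.00% of olfactory receptors and 5.56% of imprinted genes were called. Thinned to the lowest library total, r was 0.781 between the home cage and enriched replicate 1 and 0.728 between the enriched libraries. Leaving out members without coverage, an alternative chosen after seeing the data, moved none of these medians by 1 SD. The cause of these shifts was not tested. Depth limits single short genes, with a median of 4 to 9 fragments for olfactory receptors.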
